A study of Mus musculus with 4 samples.

Results

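The genes of the 4 mouse Hox clusters were measured in embryoid bodies, the floating clumps that embryonic stem cells form as they leave the undifferentiated state, after 18 h with or without the KDM6 inhibitor GSK-J4. Members were all genes whose symbol is Hox, a cluster letter from a to d and a paralogue number. The gene had to be the only symbol the platform table gives for a probe set, and the brightest probe set stood for the gene. This gave 36 of the 22180 genes named on the array. Hoxa11 and Hoxd4 shared every probe set with another symbol and were not members.

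The cells were R1, an established mouse embryonic stem cell line, freed of feeder cells on gelatin and moved to suspension without LIF, the cytokine that holds them undifferentiated. The 4 groups were EB medium alone, DMSO, 1.88 µM GSK-J5 and 1.88 µM GSK-J4, all for 18 h, with 1 array each. The 3 groups without GSK-J4 are called controls here. GSK-J4 is an ethyl ester that cells cleave to the KDM6 inhibitor GSK-J1, and GSK-J5 is the corresponding ester of GSK-J2, which differs from GSK-J1 in the position of the pyridine nitrogen and inhibits KDM6 weakly. No sample of undifferentiated cells was analysed here, so a rise or fall of Hox genes over the 18 h was not measured. With 1 array in each group no difference has a replicate check, and no p-value is given.

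Hox genes encode homeodomain transcription factors that give cells their position along the head-to-tail axis of the embryo. They lie in 4 clusters, and the genes at one end of a cluster (low paralogue numbers) are switched on earlier and farther forward in the body than those at the other end. In embryonic stem cells the clusters are covered by histone H3 lysine 27 trimethylation, a repressive mark placed by the PRC2 complex, and the KDM6 enzymes Kdm6a, Kdm6b and Uty belong to the family that removes it.

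Embryonic stem cell markers were mostly high on all 4 arrays. Nanog read 13.14 in medium, 13.20 in DMSO, 13.11 in GSK-J5 and 13.05 in GSK-J4 on the log2 scale. Of 12 such markers 11 passed the filter described next, which 60% of all genes pass. Dppa5a did not pass, at 6.31, 6.59, 6.66 and 6.29 in the same order. Feeder fibroblasts are a possible source of Hox transcripts, since body fibroblasts keep a Hox code. Of 20 fibroblast markers 11 passed the filter, near the 60% of all genes. The brightest of them was Vim (11.55 to 11.61). The collagen gene Col1a1 (7.47 to 7.72), Thy1 (7.71 to 7.90), Pdgfrb (7.48 to 7.73) and Acta2 (7.56 to 8.03) were above it on all arrays, while Dcn (4.78 to 5.59), Lum (4.34 to 4.60) and Postn (4.29 to 4.73) were under it on all arrays. The summed log2 level of the list was 135.87 to 136.86 in the controls and 132.23 in GSK-J4.

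Hox transcripts were dim as a family. The filter level was the 40th percentile of the mean log2 level of all genes (6.585), which by construction 60% of genes reach. Only 12 of the 36 Hox genes (33.3%) reached it, 1 reached the 50th percentile (7.23) and 0 reached the 60th (8.08). The brightest were Hoxb5, with a mean of 7.25 over the 4 arrays, Hoxb9 with 7.20, Hoxb1 with 7.10 and Hoxc13 with 7.08, and the dimmest was Hoxc5 with 4.79. Probe sets differ in how strongly they bind their transcripts, so an order of genes by brightness is not an order of transcript abundance. The 24 genes under the filter did not reach 6.585 on any of the 4 arrays. Just inside the filter lay Hoxd13 and Hoxd10, with means of 6.59 and 6.60, and just outside lay Hoxa10 and Hoxc10, with 6.40 (6.395) and 6.35. Background intensity was not examined here, so a gene under the filter is not shown to be off, and one above it is not shown to be on.

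**Figure D1:**
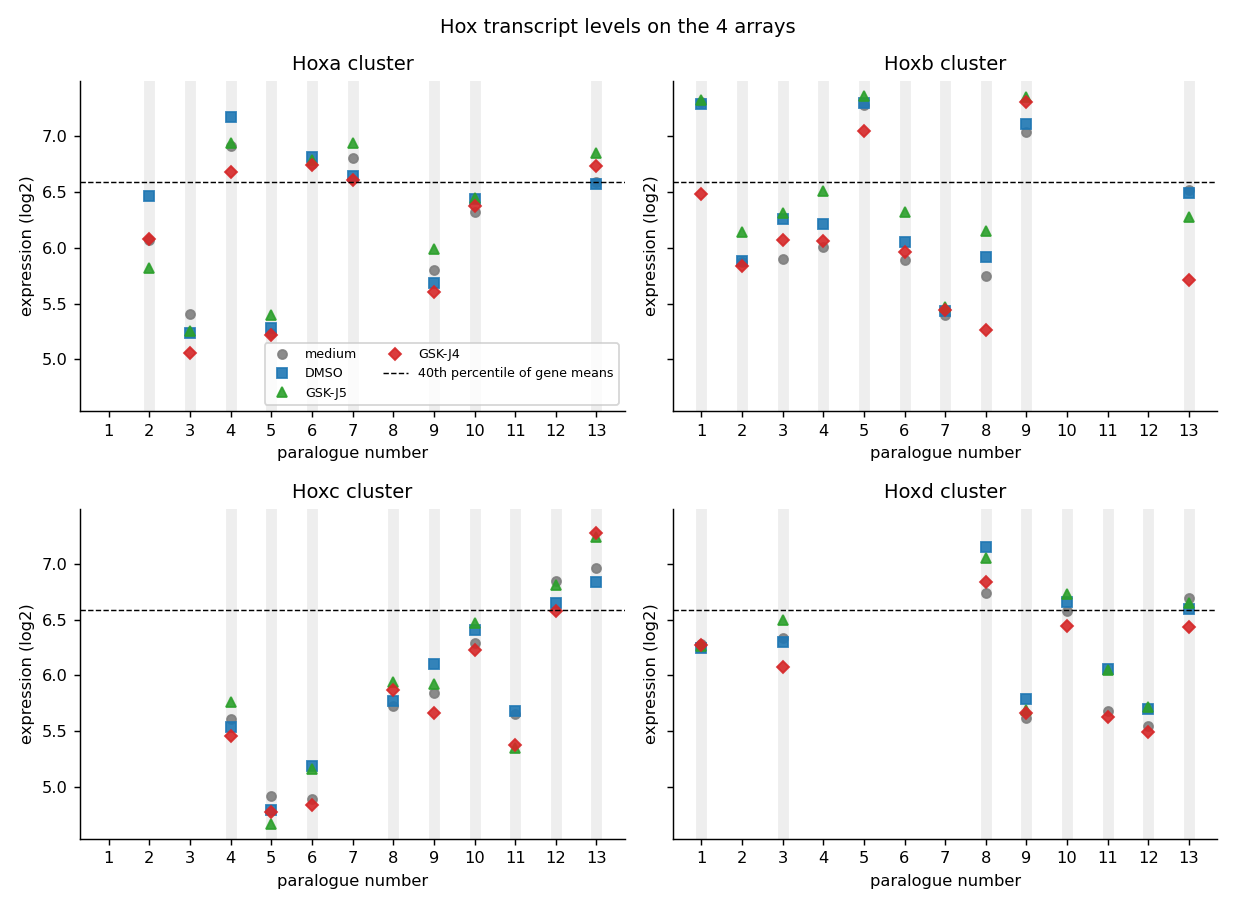
Expression (log2, y axis) of the 36 Hox genes by paralogue number (x axis) in each cluster, with 1 point for each array and the filter level of 6.585 as a dashed line. Most points lie under the line, and in GSK-J4 Hoxb1 reads 6.48 against 7.29 to 7.32 in the controls.

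The genes that passed the filter came from all clusters and from both ends of them. They numbered 4 of 9 in Hoxa, 3 of 10 in Hoxb, 2 of 9 in Hoxc and 3 of 8 in Hoxd. By position they were 2 of 10 genes with paralogue numbers 1 to 4, 4 of 11 with numbers 5 to 8 and 6 of 15 with numbers 9 to 13. Among the latter, 3 of the 4 genes of paralogue group 13 passed, while 0 of the 5 genes of groups 2 and 3 did.

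Hoxb1, an anterior Hox gene required for the identity of the hindbrain segment that gives rise to the facial nerve, was the only member lower in GSK-J4 by the rule of size used here. A gene was counted when it passed the filter and GSK-J4 lay at least 1.5-fold (0.585 on the log2 scale) beyond all 3 controls. The margin is the signed log2 distance from GSK-J4 to whichever control lies closest, and 0 inside the control range. Hoxb1 read 7.31 in medium, 7.29 in DMSO, 7.32 in GSK-J5 and 6.48 in GSK-J4. The controls lay within 0.03 of each other and all above GSK-J4, with a margin of −0.81, a 1.75-fold difference. The rule called 1 of the 12 Hox genes lower and 0 higher, against 0.842% of the 13308 genes that passed the filter lower and 2.21% higher. Hoxb1 ranked 41 of the 112 lower genes by margin. Its GSK-J4 reading fell under the filter level, so the true size of the difference is not known. Its single probe set allowed no check within the gene.

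The sequence before the start of Hoxb1 is shown because this was the only member counted, and that of Hoxb8 because this gene lay farthest from GSK-J5 of all members. Both are the 250 bases before the start in RefSeq (GRCm38.p6, plus strand), chr11:96365508-96365757 for Hoxb1 and chr11:96281655-96281904 for Hoxb8. Capitals mark matches on either strand to 3 motifs: TGATNNAT, bound by PBX and Hox proteins together; TTTATG, bound by CDX proteins; and a longer joint SOX and POU (octamer) motif whose letters were chosen after the Hoxb1 sequence was read.
Hoxb1: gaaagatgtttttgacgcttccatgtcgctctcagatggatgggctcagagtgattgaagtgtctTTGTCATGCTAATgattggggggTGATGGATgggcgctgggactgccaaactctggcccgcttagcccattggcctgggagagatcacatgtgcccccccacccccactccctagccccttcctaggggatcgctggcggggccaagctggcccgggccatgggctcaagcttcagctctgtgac
Hoxb8: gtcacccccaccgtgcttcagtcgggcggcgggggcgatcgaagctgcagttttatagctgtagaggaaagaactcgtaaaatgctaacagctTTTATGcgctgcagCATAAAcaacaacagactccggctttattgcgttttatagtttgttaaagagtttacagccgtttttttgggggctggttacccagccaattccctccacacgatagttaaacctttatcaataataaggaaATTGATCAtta

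The Hoxb1 stretch holds the PBX and Hox motif at −162 and the SOX and POU motif at −185, counted from the start site, and the region is known as an autoregulatory element through which Hoxb1 and PBX proteins maintain Hoxb1 expression in the hindbrain. The Hoxb8 stretch holds the PBX and Hox motif at −11, close to the start, and the CDX motif at −157 and −143. Over all 32851 promoter windows of this length, 7.68% hold TGATNNAT, 10.8% TTTATG and 0.0274% the SOX and POU motif. Among the 24 windows of 22 Hox genes in the table, which include 20 of the 36 members, the motifs occur in 4 (16.7%), 5 (20.8%) and 1 (4.17%). The 1 window with the SOX and POU motif is that of Hoxb1, whose sequence was read before the letters were chosen. That match was fixed in advance, so its 2 shares cannot be compared. A match describes the letters only. The SOX and POU factors of stem cells differed little between arrays, with Sox2 at 13.02 in GSK-J4 against 12.93 to 13.02 and Pou5f1 at 9.69 against 9.74 to 9.81. The CDX genes were all under the filter. Cdx1 read 6.24 against 6.48 to 6.63, Cdx2 6.46 against 6.48 to 6.57 and Cdx4 6.11 against 6.10 to 6.52. Of the PBX genes, Pbx2 (8.05 against 8.26 to 8.30) and Pbx3 (8.85 against 9.17 to 9.33) were lower than all controls. Pbx4 was higher (8.10 against 7.36 to 7.60). Whether any of these factors bears on the Hox values was not tested.

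The Hox windows were rich in CpG. Their median was 12.5 CpG dinucleotides and 58.6% G or C, against 6 and 52.4% for all windows, and the ratio of observed to expected CpG was 0.721 against 0.374. Unmethylated CpG-rich promoters are where PRC2 settles in stem cells. Hoxb1 was among the CpG-poor windows of the family, with 7 CpG and a ratio of 0.320. So were Hoxd4 (3 CpG, 0.294), Hoxa9 (3 CpG, 0.266) and Hoxc4 (8 CpG, 0.340), while Hoxb8 had 12 CpG and a ratio of 0.974. The poorest window was of Hoxd11 (2 CpG, 0.160). Another Hoxd11 window had 20 CpG and a ratio of 0.880, so the value depends on the start site.

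In the other 11 genes that passed the filter the margin was −0.23 at the farthest. The anterior gene Hoxa4, which patterns the neck vertebrae, read 6.91 in medium, 7.17 in DMSO, 6.94 in GSK-J5 and 6.68 in GSK-J4. It was lowest in GSK-J4, with a margin of −0.23, a distance smaller than the 0.26 between its highest and lowest control. Hoxb5, which acts at the level of the neck and shoulder, read 7.28, 7.30, 7.36 and 7.05 in the same order. Its GSK-J4 value lay below all controls, which spanned 0.08, with a margin of −0.23. A dimmer probe set of Hoxb5 read 6.88, 6.62, 6.82 and 6.69 and did not share this, since GSK-J4 lay inside the controls.

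Genes of the trunk were closer still. Hoxa6 read 6.75 in medium, 6.81 in DMSO, 6.79 in GSK-J5 and 6.74 in GSK-J4, with a margin of −0.01. Hoxa7, which patterns thoracic vertebrae, read 6.80, 6.64, 6.94 and 6.61 in the same order. For Hoxa7 the controls spanned 0.30, far more than the margin of −0.03. Hoxd8 read 6.74, 7.15, 7.05 and 6.84, and Hoxb9, a gene of the rib-bearing segments, 7.04, 7.11, 7.35 and 7.31. In both of these GSK-J4 lay inside the range of the controls.

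Posterior genes lay on both sides of the controls by small amounts. Hoxc13, which is needed for hair and nails, read 6.96 in medium, 6.84 in DMSO, 7.24 in GSK-J5 and 7.28 in GSK-J4. It was the only one of the 36 members highest in GSK-J4, by 0.04, and both compound arrays lay above medium and DMSO. Hoxa13, a gene of the digits and the urogenital tract, showed the same order of the 2 compound arrays over the other 2, at 6.59, 6.57, 6.85 and 6.73. Hoxc12 (6.85, 6.65, 6.81 and 6.58), Hoxd10 (6.58, 6.66, 6.73 and 6.44) and Hoxd13, which shapes the digits (6.69, 6.60, 6.65 and 6.43), were lowest in GSK-J4, with margins of −0.07, −0.14 and −0.17. In these 3 genes the GSK-J4 reading was also under the filter level.

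**Figure D2:**
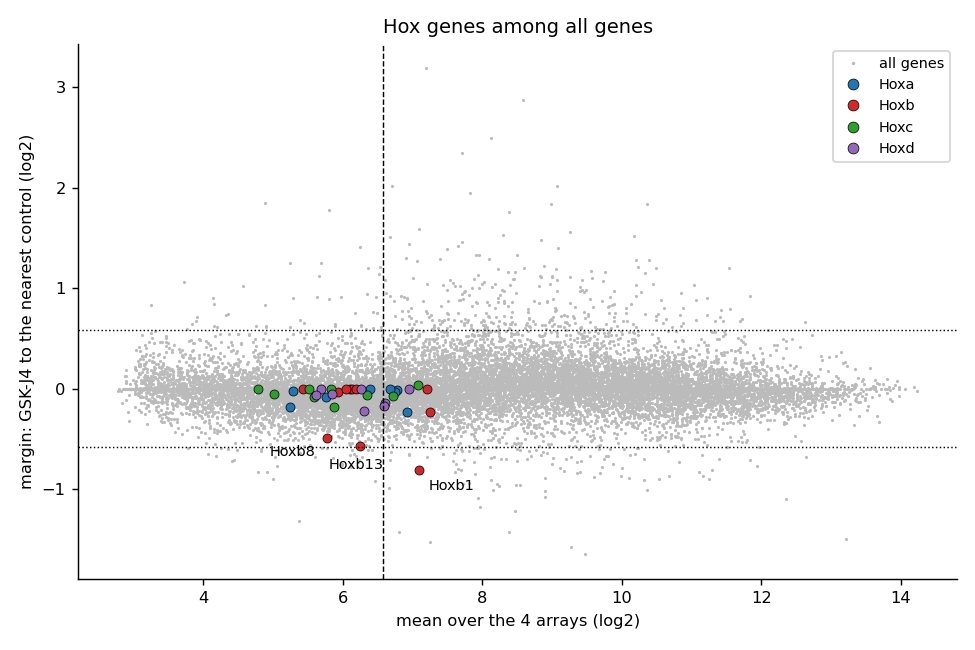
Margin of GSK-J4 (log2 distance to the nearest control, 0 inside the control range; y axis) against the mean over the 4 arrays (log2; x axis), with all 22180 genes in grey and the Hox genes coloured by cluster. Dotted lines mark 1.5-fold and the dashed line the filter; Hoxb1, at a mean of 7.10 and a margin of −0.81, is the only Hox gene beyond a dotted line.

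Of the 24 genes under the filter 0 lay 1.5-fold beyond the controls, where 0.440% of all genes under the filter were lower and 0.530% higher by that size. The farthest were Hoxb13 and Hoxb8. Hoxb13, the most posterior gene of its cluster, known from tail and prostate, read 6.52 in medium, 6.49 in DMSO, 6.28 in GSK-J5 and 5.71 in GSK-J4, with a margin of −0.57, and −0.78 without the GSK-J5 array. Hoxb8, a trunk gene, read 5.75, 5.92, 6.15 and 5.26, with a margin of −0.49. In both genes all 3 controls lay above GSK-J4, at levels where 1.5-fold differences between single control arrays also occurred: 0.113% of genes under the filter were that far below the other arrays in medium, 0.0902% in DMSO and 0.192% in GSK-J5. For Hoxb13 the GSK-J5 array alone set the nearest control.

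In Hoxd3 and Hoxa3 the margins of −0.22 and −0.18 were slightly larger than the control ranges of 0.20 and 0.17. In each of the remaining dim genes the controls spanned more than the margin. Hoxa2, the gene that sets the identity of the hyoid arch, read 6.07 in medium, 6.46 in DMSO, 5.82 in GSK-J5 and 6.08 in GSK-J4. It had the widest control range of all members (0.64) and the highest GSK-J4 minus GSK-J5 difference (0.26), yet its GSK-J4 value equalled medium within 0.01. Hoxc5, with a GSK-J4 minus GSK-J5 difference of 0.11, read 4.92, 4.79, 4.67 and 4.78. Hoxc11 read 5.65, 5.68, 5.35 and 5.38, so that both compound arrays were low. Hoxd1, a paralogue of Hoxb1, read 6.28, 6.25, 6.26 and 6.27, with controls as close together as those of Hoxb1 (0.03) and GSK-J4 among them. Over the 36 genes the median range among the controls was 0.245, as for all genes under the filter (0.25) and above that of all genes (0.16).

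As a group the Hox genes lay a little lower in GSK-J4 than in its isomer GSK-J5, used at the same dose for the same time. The median difference was −0.235 over the 36 genes, −0.225 over the 12 that passed the filter and −0.24 over the 24 that did not, beside −0.02 over all genes and −0.07 over all genes under the filter. It was negative for 31 of 36 genes, where 53.2% of all genes and 60.7% of those under the filter were negative. Differences ran from −0.89 (Hoxb8) to 0.26 (Hoxa2), and 0 of 36 reached 2-fold, as did 0.627% of all genes upward and 0.149% downward. Without Hoxb1 the median was −0.23. This is the 1 compound pair at matched dose; with 1 array each its difference has no interval.

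**Figure D3:**
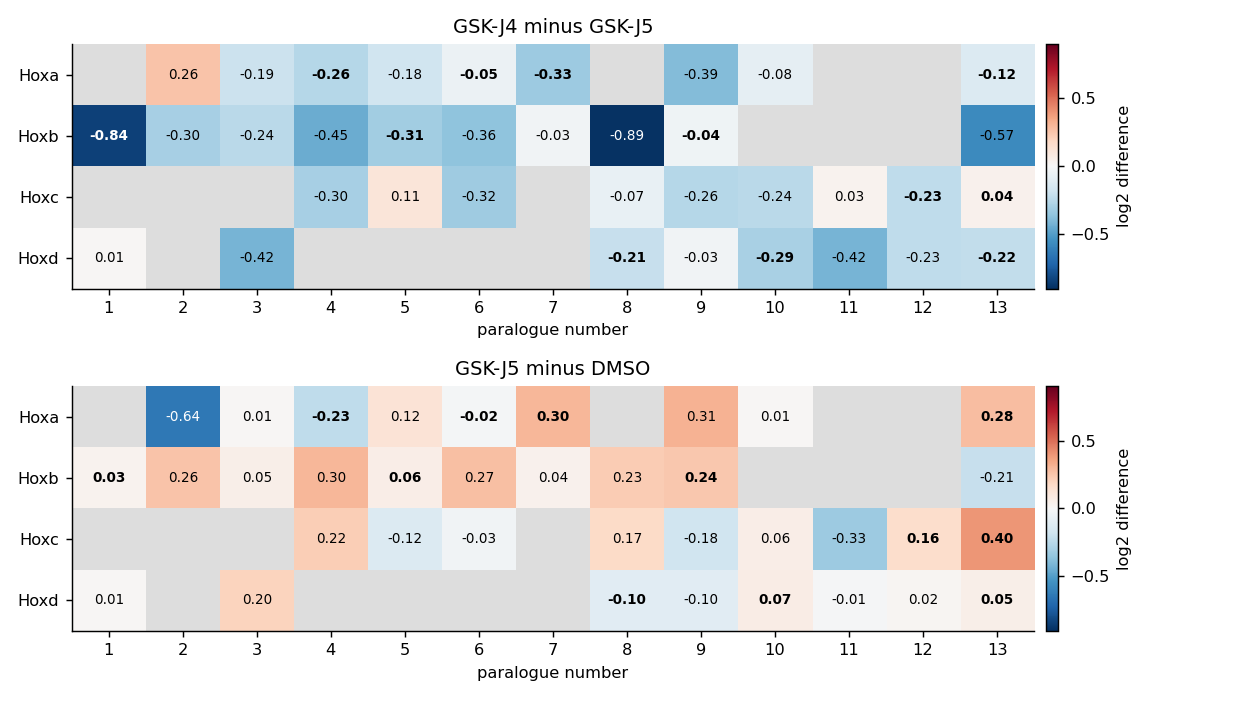
Log2 differences for each Hox gene by cluster (rows) and paralogue number (columns), GSK-J4 minus GSK-J5 above and GSK-J5 minus DMSO below, on 1 colour scale, with grey for positions not measured and bold for genes that passed the filter. Blue prevails above, deepest for Hoxb8 (−0.89), Hoxb1 (−0.84) and Hoxb13 (−0.57), and light red below.

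The size of this shift depended on the control chosen. The median GSK-J4 difference was −0.16 against DMSO, with 30 of 36 genes negative, and −0.055 against medium, with 24 negative, beside −0.02 and −0.01 over all genes, of which 52.0% and 51.8% were negative. Loess normalization against mean intensity brought these medians to −0.0611 (DMSO) and −0.0056 (medium) and that for GSK-J5 to −0.142, and over the 12 genes that passed the filter the median against medium was −0.165. The median level of the 36 genes was 6.04 in medium, 6.255 in DMSO, 6.295 in GSK-J5 and 6.065 in GSK-J4. The GSK-J4 median thus lay between those of medium and DMSO. These comparisons share the GSK-J4 array and are not independent of each other.

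Counted by array, GSK-J4 was the lowest of the 4 for 21 of the 36 Hox genes (58.3%) and the highest for 1. Over all genes GSK-J4 was below every control for 36.3% and above for 30.6%, and over the genes under the filter for 37.4% and 19.4%. The array read highest most often was GSK-J5, in 20 of 36 genes, where it was highest for 22.0% of all genes and 28.5% of those under the filter. Medium was lowest for 9 genes, DMSO and GSK-J5 for 3 each, against 18.0%, 23.4% and 18.1% of all genes. Among the 12 Hox genes that passed the filter GSK-J4 was lowest for 8 and highest for 1, against 35.5% and 38.0% of all genes that passed.

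The controls differed among themselves in the same genes. GSK-J5 minus DMSO had a median of 0.05 over the Hox genes, positive in 25 of 36, beside 0.01 over all genes with 51.3% positive. It was highest for Hoxc13 (0.40), Hoxa9 (0.31) and, equally, Hoxa7 and Hoxb4 (0.30) and lowest for Hoxa2 (−0.64), Hoxc11 (−0.33) and Hoxa4 (−0.23). GSK-J5 minus medium had a median of 0.15, positive in 28 genes, and DMSO minus medium 0.04, positive in 23, against 47.9% and 45.5% of all genes. Hoxb4, known for expanding blood stem cells, read 6.01 in medium, 6.21 in DMSO, 6.51 in GSK-J5 and 6.06 in GSK-J4, so its difference of −0.45 from GSK-J5 stood beside one of 0.05 from medium. Hoxb3, Hoxb6 and Hoxb8 were likewise 0.40 to 0.43 higher in GSK-J5 than in medium, but in Hoxb8 alone among them GSK-J4 lay below every control.

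By cluster, medians of the difference between GSK-J4 and GSK-J5 were −0.18 in Hoxa, −0.335 in Hoxb, −0.23 in Hoxc and −0.225 in Hoxd. Against medium the medians were −0.02, 0.005, −0.14 and −0.055, so the order of the clusters was not kept and Hoxb had the highest value. By position the GSK-J4 minus GSK-J5 medians were −0.28 for paralogues 1 to 4, −0.21 for 5 to 8 and −0.23 for 9 to 13. Genes below all controls numbered 6 of 10, 6 of 11 and 9 of 15 in these 3 zones, and 6 of 9, 5 of 10, 5 of 9 and 5 of 8 in the clusters from Hoxa to Hoxd. The share was 36.3% over all genes and 37.4% over those under the filter.

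Other developmental transcription factors are given beside the Hox genes, with no test of a difference between them. A list of 95 measured factors of the Pax, Lhx, Dlx, Irx, Tbx, Gata and related families, many of them PRC2 targets in stem cells, had a median of −0.21 relative to GSK-J5, with 80 negative, −0.14 relative to DMSO and −0.15 relative to medium. GSK-J4 was below all controls for 69 of them (72.6%) and above for 10, against 58.3% of the Hox genes and 36.3% of all genes below. Of the 57 that passed the filter 1 was counted lower, where 0.842% of all genes that passed were. It was Neurog3, a factor of endocrine pancreas cells, at 6.96 against 7.76 to 8.03. The 20 fibroblast markers had medians of −0.245, −0.155 and −0.135 in the same order, with 14 below all controls, 0 above and 0 counted. Against GSK-J5 neuroectoderm markers had a median of −0.22, primitive streak and mesoderm markers −0.15, trophoblast markers −0.03 and endoderm markers 0. Of these lineage markers 8 neuroectoderm, 7 streak, 7 trophoblast and 6 endoderm genes passed the filter, with some genes on 2 lists. The only call among them was Eomes, a factor of streak and trophoblast, lower at 7.51 against 8.11 to 8.26. Of all genes that passed, 0.842% were lower. The part of any of these cells in the Hox values was not tested, and in bulk samples fewer cells of a type and less RNA in each cell cannot be told apart.

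**Figure D4:**
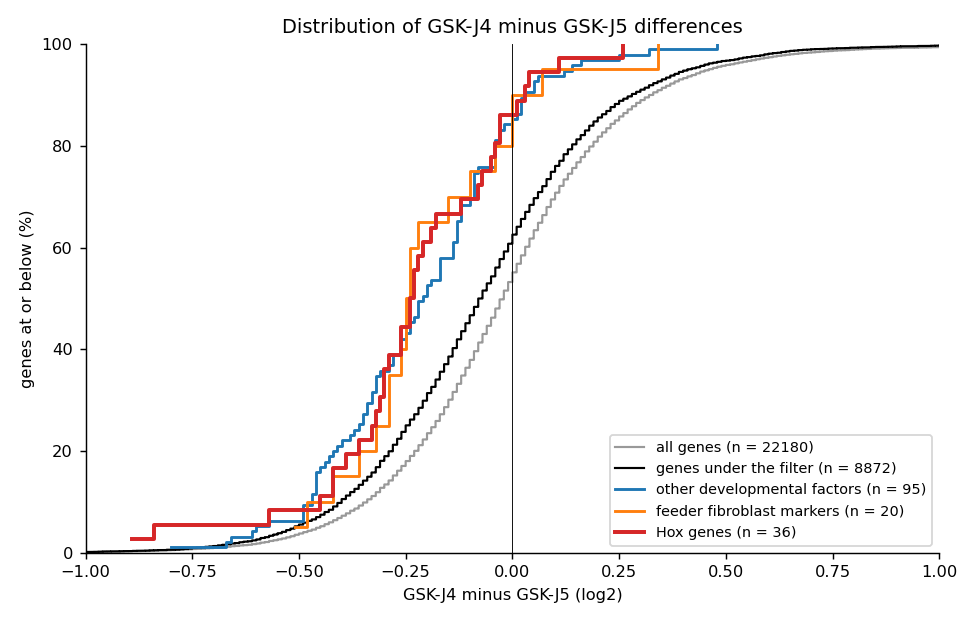
Cumulative share of genes (%, y axis) at or below each GSK-J4 minus GSK-J5 difference (log2, x axis) for all genes, genes under the filter, other developmental factors, fibroblast markers and Hox genes; the axis is cropped at −1 and 1. The last 3 curves run together, with medians of −0.21, −0.245 and −0.235, to the left of the curves for all genes and for genes under the filter.

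Few of the other RNAs transcribed from within the clusters could be followed here. Of 32 such RefSeq genes 9 had a probe set of their own and 2 of these passed the filter, Hoxaas3 and Gm53, with GSK-J4 minus GSK-J5 differences of 0.14 and 0.15. The median over the 9 was 0.10, with 3 below and 3 above all controls, where 36.3% and 30.6% of all genes were. These counts are near the background, and 0 of the 2 that passed were counted. Hotair, a long noncoding RNA of the Hoxc cluster, read 5.73 in medium, 6.16 in DMSO, 6.10 in GSK-J5 and 6.0 in GSK-J4, inside the control range.

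The clusters also encode microRNAs, which repress Hox and other transcripts. Those of the miR-196 family are shown because one mature sequence comes from 2 loci that read differently here. The capitals are the seed, bases 2 to 8, in RefSeq sequences (GRCm38.p6).
miR-196a-5p: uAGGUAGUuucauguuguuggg
miR-196b-5p: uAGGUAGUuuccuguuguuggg
miR-196a-1-3p: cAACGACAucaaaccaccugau
miR-196a-2-3p: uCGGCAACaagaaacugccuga

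Both 5p sequences share the seed AGGUAGU, while the 3p arms of the 2 miR-196a loci do not share theirs. Mir196a-1, in the Hoxb cluster, read 5.57 in medium, 5.28 in DMSO, 5.39 in GSK-J5 and 5.63 in GSK-J4. Mir196a-2, in the Hoxc cluster, read 4.87, 4.82, 5.08 and 4.29. Mir196a-2 was lowest in GSK-J4 (margin −0.53) and Mir196a-1 highest (margin 0.06), but both were under the filter on all arrays. Where these probe sets lie relative to the hairpin was not examined, so the values are not read as levels of the mature strands. Mir10b, at 3.04 to 3.39, and Mir615, at 5.80 to 6.20, were also under the filter, and Mir196b was not analysed here.

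Genes that flank the clusters were mostly well expressed and close to the controls. Of the 40 nearest measured protein-coding genes, 5 on each side of each cluster, 36 passed the filter, and their median relative to GSK-J5 was 0.03. Of these 1 was counted higher and 1 lower, against 2.21% and 0.842% of all genes that passed. Creb5, a transcription factor gene near Hoxa, read 7.55 in GSK-J4 against 6.75 to 6.85, and Calcoco2, a receptor of selective autophagy near Hoxb, 9.22 against 9.89 to 9.98. Skap1, the nearest measured gene beyond Hoxb1, read 6.31 against 6.49 to 6.63, but did not pass the filter (margin −0.18). The next genes on that side, Snx11, Cbx1 and Nfe2l1, were above all controls, with margins of 0.12, 0.04 and 0.47. Copz2, beyond them, was below (margin −0.09). GSK-J4 was below all controls for 12 of the 40 flanking genes and above for 14, against 36.3% and 30.6% of all genes.

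Genes that act upstream of Hox genes or beside their products gave few calls. Of 18 retinoic acid pathway genes, which carry the signal that turns on anterior Hox genes, 12 passed the filter. Among them 1 was lower, where 0.842% of all genes that passed were. This was the receptor gene Rxrg, at 9.36 in medium, 9.17 in DMSO, 9.08 in GSK-J5 and 8.0 in GSK-J4, with all controls above GSK-J4 (margin −1.08). The list median was −0.065 against GSK-J5. Cyp26a1, which degrades retinoic acid and is itself a target of it, read 6.03 against 6.39 to 6.47 but was under the filter. Upstream patterning regulators had a median of −0.16 with 0 of 6 counted, Gdf11 (−0.34) and Fgf8 (−0.23) being the farthest from GSK-J5.

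ParaHox and Evx genes, the closest relatives of the Hox genes, had a median of −0.22 over 8, of which 3 passed and 0 were counted. Pdx1 (−0.42) and Cdx1 (−0.39) were the farthest from GSK-J5, both under the filter. PBX, MEIS and PKNOX genes, whose TALE homeodomain products bind DNA together with Hox proteins, had a median of −0.025 with 0 of 6 counted. Pbx4 was higher than GSK-J5 by 0.63 (8.10 against 7.36 to 7.60 in the controls) and Pbx3 lower by 0.48.

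The chromatin regulators of the clusters stood near 0 as groups. Trithorax (MLL) genes, which keep Hox genes active, had a median of 0.02 with 0 of 12 counted, Rbbp5 (0.39) and Dpy30 (−0.38) being the farthest. PRC1 genes, which act with PRC2 in Hox silencing, had a median of 0.05. Cbx2, a PRC1 subunit that binds the mark and whose loss changes vertebral identity, was lower at 9.36 against 9.96 to 10.01. It was the only call among 15, where 0.842% of all genes that passed were lower. PRC2 and KDM6 genes had a median of −0.01 with 0 of 15 counted, Phf19 (−0.54) and Kdm6b (0.40) being the farthest from GSK-J5.

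**Figure D5:**
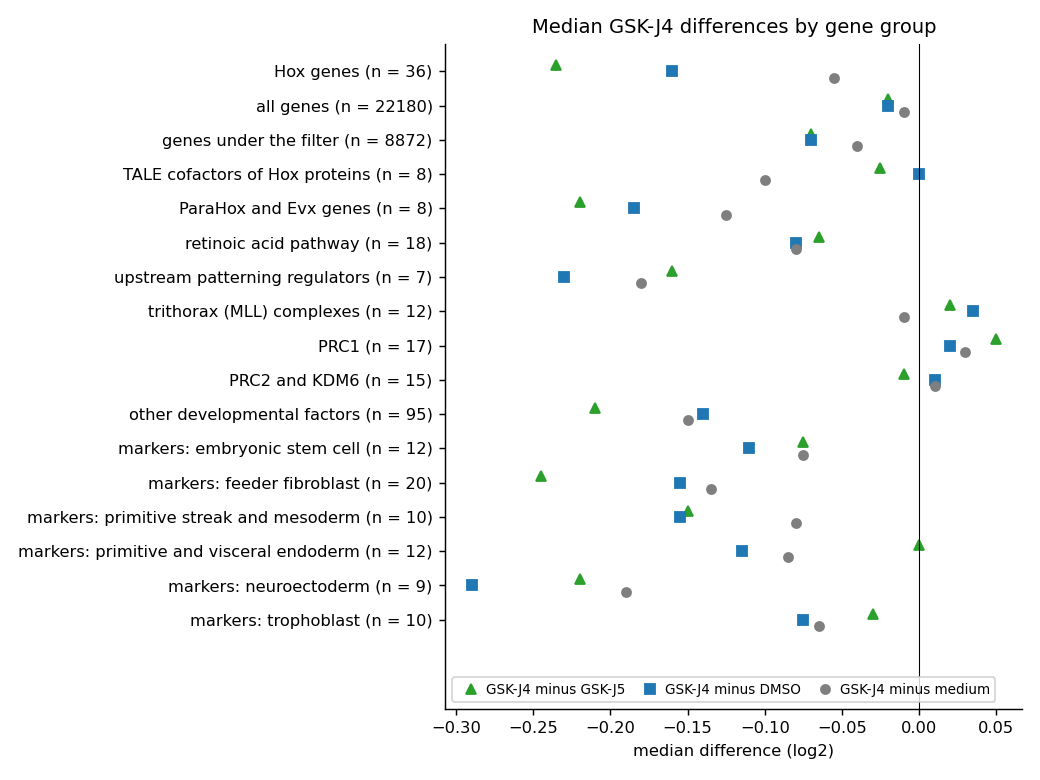
Median log2 difference (x axis) between GSK-J4 and each of GSK-J5, DMSO and medium for the Hox genes, all genes, the genes under the filter and each other list (rows, with the number of genes measured). The Hox median runs from −0.235 to −0.055 with the control chosen, while the trithorax, PRC1 and PRC2 lists stay between −0.01 and 0.05.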

How the data were processed

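Expression was measured on 4 Affymetrix arrays, 1 for each treatment, grouped by the labelled treatment. Per the submitters' processing notes the authors used RMA and Expression Console (Affymetrix, version 1.2.1.20), and the deposited values are on a log2 scale. RMA brings arrays to 1 distribution, and the log base was taken as 2 from the range of the values, 2.20 to 14.48. The number of arrays limits the precision, and no background or detection values were used. Of 41345 probe sets 23521 had a single symbol in the platform table; RefSeq (GRCm38.p6) gave names, gene order and sequences. Genome build and strand of the probe sets are not given in the sources used here, so transcripts from the opposite strand cannot be told apart.

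Differences, medians and margins were computed in Python 3.11.15 (pandas 2.3.3), and the rule of size was tried on simulated arrays. The genes changed there lay well above the filter level, shared the same noise and differed by 2-fold or more. The simulation therefore did not cover dimmer genes or smaller differences. The members, lists and rules were chosen with earlier results of these data known. Named genes are Hox genes that passed the filter or were counted, the 3 at each end by GSK-J4 minus GSK-J5 and by GSK-J5 minus DMSO, the brightest of each cluster, those next to the filter, and from each list the counted members or the 2 farthest from GSK-J5; others were chosen after their values were seen. Alternatives were other filters and folds, median centring, quantile normalization, loess (span 0.3), other probe set summaries and leaving out each control.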

Additional observations from a re-analysis of the deposited data

How the results depend on the processing

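Hoxb1 remained the only Hox gene counted, and 0 were higher, without a filter, at 1.2-fold, under the 3 rescalings, with the median over probe sets and without each control array (1 lower without medium, DMSO or GSK-J5); its margin ran from −0.83 to −0.77. No Hox gene was counted at 2-fold (0 lower), or with the filter at the 60th percentile (0 lower), which 0 members pass. The number of members at or above the filter moved with its level: 21 at the 30th percentile, 1 at the 50th, 0 at the 60th and 20 when the percentile was taken over all probe sets. The 6 median differences stayed within 0.137 of their values under all alternatives that could be computed, where 0.137 is the SD of the Hox median over the 3 control arrays. That tolerance is larger than the medians of GSK-J4 minus medium (−0.055), GSK-J5 minus DMSO (0.05) and DMSO minus medium (0.04). For these a median could vanish and still stay within it, so it is no evidence of stability. GSK-J4 minus GSK-J5 ran from −0.235 to −0.142 (loess), GSK-J4 minus DMSO from −0.181 to −0.0611, and GSK-J4 minus medium from −0.165 to −0.0056. Medians over members that pass the 60th percentile could not be computed. No paired analysis was possible because each treatment has 1 array. Signal over background was not examined, which limits all statements on the 24 genes under the filter.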

Other observations

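Probe sets that the platform table assigns to several symbols were not used for the Hox genes above, except in the alternative that took all probe sets of the members. The 2 that name Hoxa11 together with its antisense RNA Hoxa11os read 5.78 in medium, 5.96 in DMSO, 5.84 in GSK-J5 and 5.34 in GSK-J4, and 6.60, 6.44, 6.56 and 6.31. Both were lowest in GSK-J4, with margins of −0.44 and −0.13. The probe set shared by Hoxd4 and Hoxd3 read 6.56, 6.76, 6.53 and 6.18 and was lowest in GSK-J4 (margin −0.35), as was the probe set of Hoxd3 alone (margin −0.22). The probe set shared by Hoxa3 and 5730446D14Rik read 7.13, 7.12, 6.99 and 7.16, highest in GSK-J4 (margin 0.03), while that of Hoxa3 alone was lowest there (margin −0.18). In the other 3 probe sets of this kind GSK-J4 lay inside the control range. That of Hoxb3 and Hoxb2 read 6.08, 6.29, 6.29 and 6.10, that of Mira and Hoxa7 5.02, 5.10, 5.41 and 5.18, and that of Mir10a and Hoxb4 3.28, 3.03, 3.37 and 3.33.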
